A study of Mus musculus with 4 samples.

Results

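MTF1, the zinc-sensing transcription factor of the cell, and the metallothioneins, its best-known targets, were followed in SW620 cells treated with F5446. The members were all probe sets that the platform annotation names for MTF1, MT1A, MT1B, MT1E, MT1F, MT1G, MT1H, MT1M, MT1X or MT2A. Of these 10 genes, 9 had a named probe set, 1 each, out of 14884 named genes on the array; MT1A was not analysed here. SW620 is an established human colon carcinoma line. The control group was untreated SW620 cells in RPMI medium with serum, and neither a vehicle nor a time in culture is named for it. The treated group received F5446, a small molecule labelled a selective inhibitor of the histone methyltransferase SUV39H1, at 50 nM for 2 days. Each group held 2 arrays of total RNA, described by the series as biological replicates. Whether they came from separate cultures is not said, and a p-value here reflects array-to-array spread, which may be technical. The sample records name mouse as the organism, whereas the growth protocol and the probe annotation are human, and the data were read as human.

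Metallothioneins are small, cysteine-rich proteins that bind zinc, copper and cadmium and buffer free zinc in the cytosol. MTF1 is a zinc-finger protein that binds DNA when zinc is abundant, recognises metal response elements in metallothionein promoters and switches these genes on. Zinc, cadmium, glucocorticoids and oxidative stress raise metallothionein mRNA in many cell types. Metallothionein levels are often lower in colorectal tumours than in normal mucosa. The functional metallothionein genes lie in a single cluster and are close in sequence, so probe sets of 1 member can also pick up RNA of another.

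The 4 arrays had medians of 4.40 to 4.44 over all 53617 probe sets, on a scale taken as log2 signal. Arrays of the same group correlated at 0.994 and 0.995 across genes, and arrays of different groups at 0.943 to 0.945. SUV39H1 mRNA, from the gene of the inhibitor's target, was lower after F5446 by a log2 fold change of -1.73 ± 0.08 (SE). That value is from the brighter of its 2 probe sets, and the mean of both gave -1.46 ± 0.12. SUV39H2 mRNA was also lower, by -1.08 ± 0.09 (SE), and 22.7% of all named genes fell. The enzyme activity of SUV39H1 was not measured. Of 9 measured colon epithelial markers, 8 had mean signals above 4.42, the median of all probe sets, among them EPCAM, KRT8, KRT18 and KRT19; KRT20 lay below it. These markers were not constant: 5 of the 9 fell (22.7% of all named genes fell) and 2 rose (18.2% of all rose) after F5446. VIL1 had a log2 fold change of -3.87 and CEACAM5 of 1.93. The summed linear signal of the 9 was 8370 to 8401 in the controls and 4794 to 4844 after F5446. Of 5 measured immune markers 1 passed the test described below, and of 5 stromal and endothelial markers 1 passed, where 40.9% of all named genes passed. The markers that passed were LYZ and LUM, both lower. The summed linear signal of the immune markers was 187 to 189 in the controls and 118 on both arrays after F5446. For the stromal and endothelial markers it was 173 to 177 in the controls and 64 to 67 after F5446. The fall of each sum lay in 1 gene. LYZ had a log2 fold change of -1.79, and the 4 immune markers that did not pass changed by at most 0.16. LUM had a log2 fold change of -3.02, and the 4 stromal and endothelial markers that did not pass ranged from -0.11 to 0.42. CD2, CD14 and CSF1R lay below the median of all probe sets, whereas LYZ and NKG7 had 4-array means of 5.82 and 5.12, above it. LUM, with a mean of 5.52, was also above it, and the other 4 stromal and endothelial markers lay below. PTPRC, CD3E and CD79A were not analysed here. The part of these markers in the results below was not tested.

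After F5446, MTF1 and the metallothioneins MT1G, MT1X and MT2A were higher, MT1E was lower, and MT1F, MT1B, MT1H and MT1M did not pass the test. MTF1 and MT1G rose by nearly the same amount, 2.40-fold and 2.38-fold. MT1X rose 2.18-fold and MT2A 1.67-fold, while MT1E fell 1.53-fold. A gene passed where its adjusted p in limma, fitted over all named genes, was under 0.05. By that rule 4 of the 9 members rose (18.2% of all named genes rose) and 1 fell (22.7% of all fell). In all, 5 members passed, or 55.6%, against 40.9% of all named genes. The median log2 fold change of the 9 members was 0.14, beside -0.05 for all named genes. In such bulk RNA, a change in all cells and a change in some of them cannot be told apart, nor can fewer cells of a type and less RNA per cell.

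**Figure D1:**
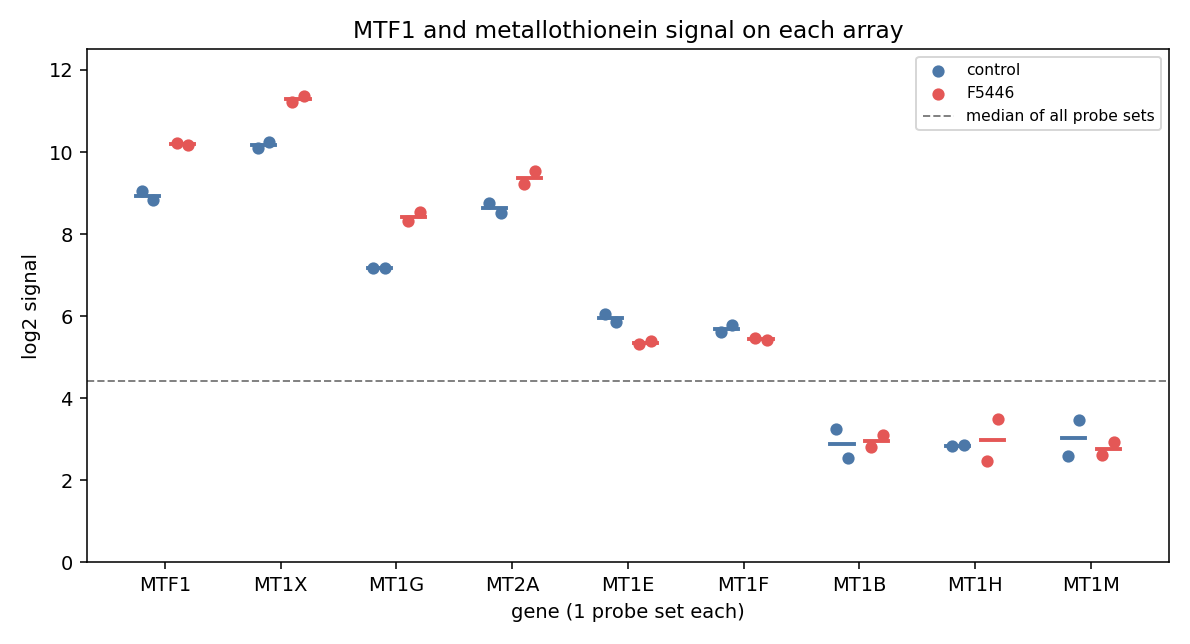
Log2 signal (vertical axis) of the 9 members on each array, with 2 control arrays in blue and 2 F5446 arrays in red; short bars are group means and the dashed line is the median of all probe sets, 4.42. MTF1, MT1X, MT1G and MT2A are higher on both F5446 arrays, MT1E and MT1F are lower on both, and MT1B, MT1H and MT1M overlap below the dashed line.

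MTF1 (probe set 16685489) had log2 signals of 9.05 and 8.83 on the control arrays and 10.23 and 10.18 on the F5446 arrays. Both treated arrays lay above both controls, with a gap of 1.13 between the groups against differences of 0.23 and 0.05 between replicate arrays. The group means were 8.94 ± 0.16 and 10.20 ± 0.03 (SD, n = 2 each). Their difference, the log2 fold change, was 1.26 ± 0.08 (SE; 95% interval 1.08 to 1.45; limma adjusted p = 2.29e-06). Of the 14884 named genes, 486 (3.27%) had a higher log2 fold change. MTF1 is a transcription factor whose activity depends on zinc binding and on its move into the nucleus, neither of which the arrays measured.

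Among the metallothioneins, MT1G had the largest change. MT1G (probe set 16826738) read 7.17 and 7.18 in the controls and 8.33 and 8.53 after F5446. The control arrays differed by 0.01 and the treated arrays by 0.20, both far less than the gap of 1.14 between the groups. Its log2 fold change was 1.25 ± 0.09 (SE; 95% interval 1.04 to 1.46; adjusted p = 6.41e-06), from a mean of 7.18 ± 0.01 to 8.43 ± 0.14 (SD, n = 2 each). A higher log2 fold change was found for 495 named genes (3.33%).

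MT1X (probe set 16819264) had signals of 10.10 and 10.25 in the controls and 11.23 and 11.37 after F5446. The groups were apart by 0.99, and replicate arrays differed by 0.15 and 0.13. The means were 10.17 ± 0.10 and 11.30 ± 0.095 (SD, n = 2 each), with a log2 fold change of 1.13 ± 0.07 (SE; 95% interval 0.97 to 1.28; adjusted p = 1.66e-06). For 620 named genes (4.17%) the log2 fold change was higher. The 95% intervals of MTF1, MT1G and MT1X overlap, the order of MTF1 and MT1G turned in 3 of the 13 alternatives, and whether their changes differ from one another was not tested.

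MT2A encodes the widely expressed isoform metallothionein 2A. It read 8.77 and 8.51 in the controls and 9.22 and 9.53 after F5446 (probe set 16819207). The groups did not overlap, but their gap of 0.45 was nearer to the differences between replicate arrays, 0.26 and 0.31, than for the 3 genes above. The log2 fold change was 0.74 ± 0.12 (SE; 95% interval 0.47 to 1.0; adjusted p = 0.000722), a rise from 8.64 ± 0.18 to 9.37 ± 0.22 (SD, n = 2 each).

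MT1E, a metallothionein 1 isoform, went the other way. MT1E (probe set 16819217) had signals of 6.06 and 5.86 in the controls and 5.32 and 5.39 after F5446. Both treated arrays were below both controls, with a gap of 0.48. The mean changed from 5.96 ± 0.14 to 5.35 ± 0.05 (SD, n = 2 each), which is -0.61 ± 0.14 on the log2 scale (SE; 95% interval -0.92 to -0.30; adjusted p = 0.0055). A lower log2 fold change was found for 14.4% of the named genes. Without F5446 replicate 1 the value was -0.58 and the call was lost (adjusted p = 0.0571; range over 13 alternatives 0.00348 to 0.0571). Whether MT1E differed in its change from the members that rose was not tested beyond each gene's own interval.

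MT1F, another isoform gene, read 5.61 and 5.79 in the controls and 5.48 and 5.42 after F5446 (probe set 16819252). The groups were apart by 0.13, less than the difference of 0.18 between the control arrays. Its log2 fold change of -0.25 ± 0.14 (SE; 95% interval -0.56 to 0.06; adjusted p = 0.201) did not pass. The interval reaches neither the value measured for MT1E nor that for MT2A, but it overlaps the interval of MT1E, -0.92 to -0.30. Whether the changes of MT1F and MT1E differ was not tested.

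The remaining 3 metallothionein 1 genes had low signal on every array. MT1B ranged from 2.54 to 3.24 in the controls and from 2.82 to 3.09 after F5446. MT1H read 2.85 on both control arrays, and 2.48 and 3.50 after F5446. MT1M read 2.59 and 3.47 in the controls and 2.61 and 2.93 after F5446. All 12 of these values lie below 4.42. In each of the 3 genes the groups overlap, and log2 fold changes of 0.06, 0.14 and -0.26 carried standard errors of 0.24 to 0.29 with adjusted p-values of 0.536 to 0.886 (0.374 to 0.807 unadjusted). The table has no detection calls, so whether these 3 genes were expressed could not be read from it. The 95% interval of MT1H, -0.52 to 0.81, and that of MT1M, -0.89 to 0.37, each contain changes of the size measured for MT2A or MT1E.

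**Figure D2:**
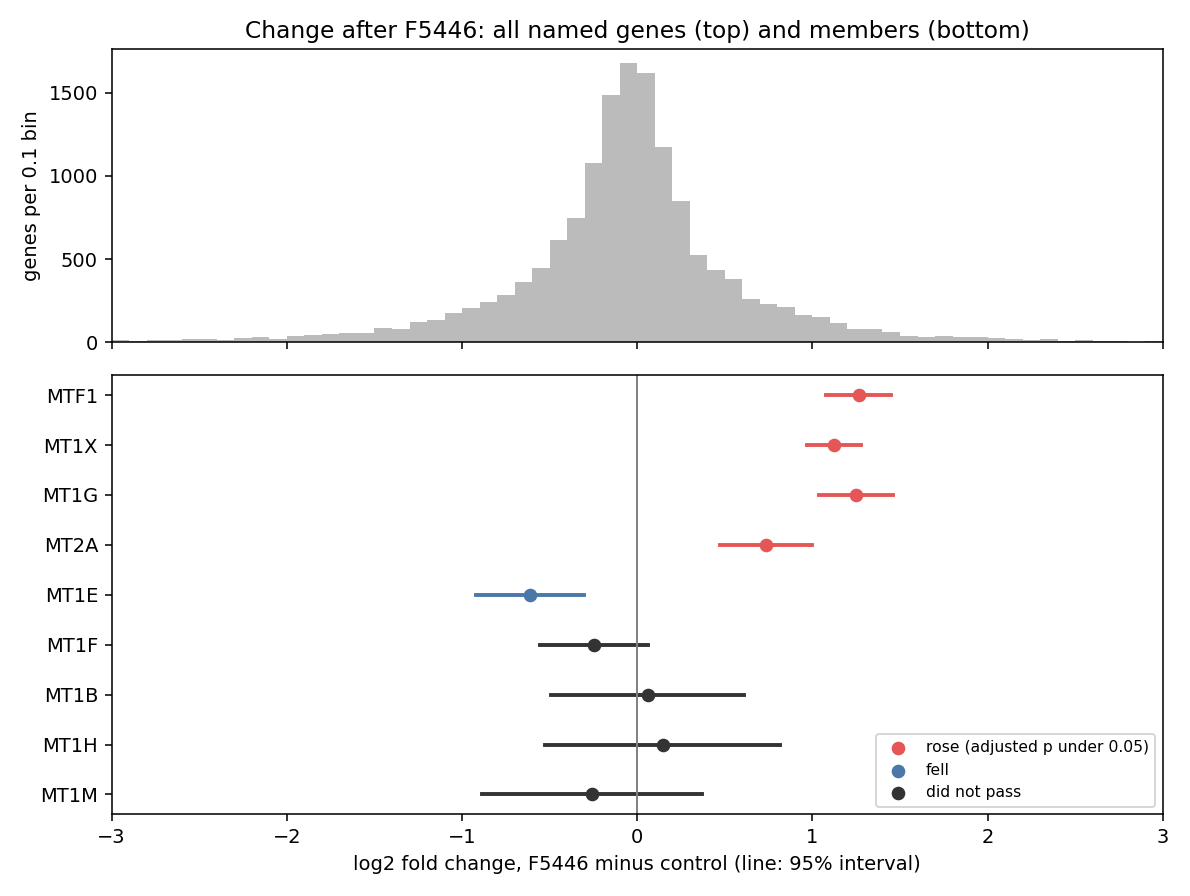
Top, number of named genes per bin of log2 fold change (F5446 minus control), drawn from -3 to 3; bottom, the log2 fold change of each member (point) with its 95% interval from limma (line), coloured by call. The intervals of MTF1, MT1X, MT1G and MT2A lie wholly above 0 and that of MT1E wholly below, while those of MT1F, MT1B, MT1H and MT1M span 0.

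Of the 5 metallothioneins whose mean was above the median of all probe sets, 3 rose, 1 fell and 1 did not pass; of the 3 below it, 0 passed. Over all named genes, 55.7% of those at or above that median passed and 8.05% of those below it, so brighter genes passed more often in general. Both F5446 arrays were above both controls for 4 of the 9 members (28.4% of all named genes) and below for 2 (37.7% of all named genes). A low signal compresses fold changes on such arrays, and signals of different probe sets do not rank the genes by mRNA amount. The 3 metallothioneins measured outside the rule did not pass: MT3, the isoform best known from brain, had a log2 fold change of -0.05 ± 0.15, MT4, the isoform of stratified epithelium, 0.20 ± 0.16, and MT1L, a pseudogene, -0.10 ± 0.27 (SE; adjusted p 0.4 to 0.864). The sign of MT3 and of MT1L turned when each array was centred on its median.

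The scaling of the arrays bears on the size of every change. The medians of the named genes were 5.635 and 5.642 on the control arrays and 5.504 and 5.521 on the F5446 arrays. Centring each array on that median raised all log2 fold changes by 0.13. The split over all named genes then turned from 2714 higher and 3372 lower to 3420 higher and 2735 lower. Relative to the centred arrays MTF1 rose by 1.39, MT1G by 1.38, MT1X by 1.25 and MT2A by 0.86. MT1E changed by -0.48 (adjusted p = 0.0177) and MT1F by -0.12 on that scale. The 4 rises passed in all 13 alternatives tried, with MTF1 between 1.15 and 1.39, MT1G between 1.15 and 1.38, MT1X between 1.05 and 1.25 and MT2A between 0.58 and 0.89. The fall of MT1E passed in 12 of the 13.

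**Figure D3:**
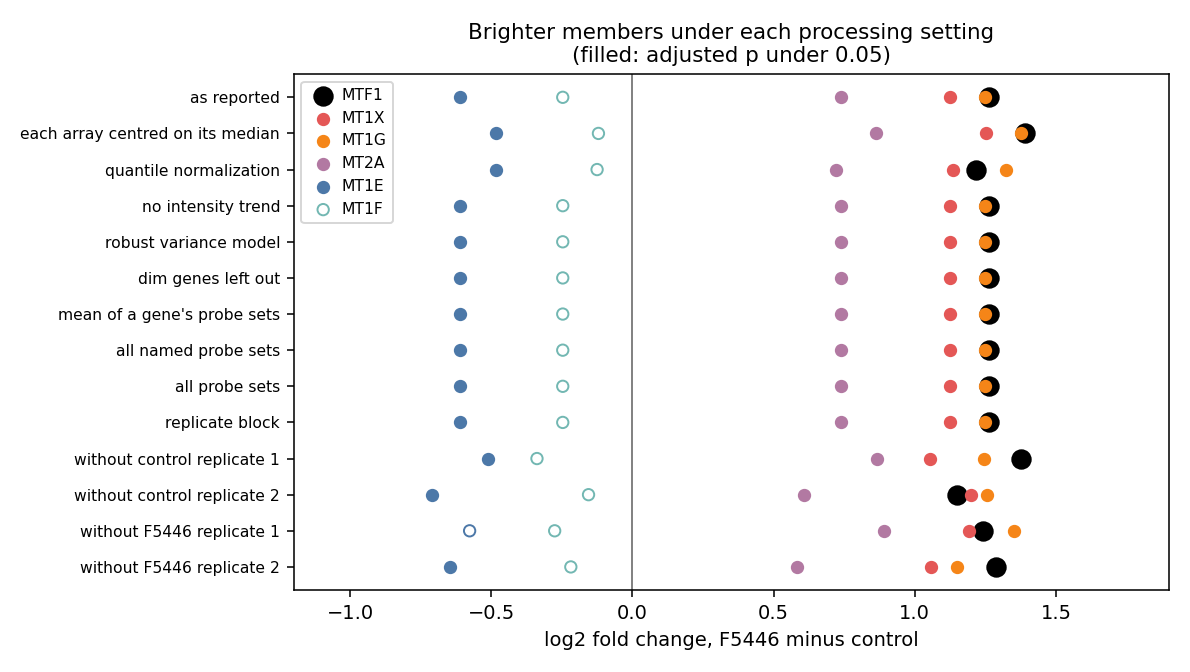
Log2 fold change (horizontal axis) of the 6 brighter members under the reported fit and 13 alternatives (rows); filled points have an adjusted p under 0.05, and the larger black points of MTF1 lie partly behind those of MT1G. MTF1, MT1X, MT1G and MT2A stay filled and above 0 in every row, MT1E is open only without F5446 replicate 1, and MT1F is open in every row.

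Genes with the profiles most like those of the members were found by the Euclidean distance between 4-array profiles, each centred on its own mean, among 7441 genes with a mean at or above 5.62, the median of the named genes. The profile of MTF1 was nearest to those of SNRK, RBM39, TRIM8, CLASRP and STC2, at distances of 0.0236 to 0.0584 log2 units. MT1G was nearest to IDS, ACSL5, EPC1, CLDND1 and KDM6A, at 0.0444 to 0.0685. MT1X was nearest to KLF3, TAX1BP1, ARHGAP21, SMURF2 and SBDS, at 0.0245 to 0.0481. All 15 rose, by log2 fold changes of 1.11 to 1.30, which follows from their being picked for closeness to members that rose. The widest ranges over the 13 alternatives were 0.63 to 1.365 for CLDND1 and 0.83 to 1.39 for SNRK. With 4 arrays in 2 groups such a match is not rare: 241 genes lay within 0.25 of MTF1, 199 within 0.25 of MT1G and 237 within 0.25 of MT1X. The members themselves were farther apart, MTF1 from MT1G at 0.244, MTF1 from MT1X at 0.323 and MT1G from MT1X at 0.163, while MT1E was at 1.88 from MTF1 and at 0.461 from MT1F.

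The other genes of metal handling were read from lists of zinc, copper and iron genes. None of the 24 listed zinc exporters of the SLC30 family and importers of the SLC39 family had a named probe set, so the transporters that set cytosolic zinc, SLC30A1 among them, were not analysed here. Of the 26 copper and iron genes measured, 8 rose (18.2% of all named genes rose), 7 fell (22.7% of all fell) and 11 did not pass. Only 4 of the 26 lay below the median of all probe sets, and 55.7% of all named genes at or above it passed. The median log2 fold change of the 26 was 0.00 beside -0.05 for all named genes. Of 11 genes described elsewhere as MTF1 targets besides the metallothioneins, 5 were measured. Among the 5, 1 rose (18.2% of all named genes rose), 1 fell (22.7% of all fell) and 3 did not pass, with a median of -0.02. None of the 5 lay below the median of all probe sets, and 55.7% of all named genes at or above it passed. NDRG1, a stress-responsive gene also induced by hypoxia, read 5.04 and 5.26 in the controls and 7.40 and 7.57 after F5446, a log2 fold change of 2.34 ± 0.13 (SE). SELENOH, which encodes a selenoprotein, read 8.31 and 8.32 in the controls and 7.65 and 7.73 after F5446, a change of -0.62 ± 0.08. PGF and CSRP1 had log2 fold changes of 0.31 and -0.17 and did not pass, nor did HAMP. PGF passed with each array centred on its median (0.44, adjusted p = 0.0384; range over alternatives 0.0384 to 0.312).

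Of 15 listed copper genes 10 were measured, and ATP7A, ATP7B, SLC31A1, SLC31A2 and SOD1 were not analysed here. The measured copper genes moved both ways, with 2 of 10 higher (18.2% of all named genes) and 4 lower (22.7% of all) and a median of -0.05. COX11 and SCO1 act in the delivery of copper to cytochrome c oxidase. COX11 read 7.73 and 7.67 in the controls and 6.81 and 6.70 after F5446, and SCO1 9.80 and 9.81 against 9.25 and 9.04. CCS, the copper chaperone of superoxide dismutase, fell by 0.63 on the log2 scale and COMMD1, which acts in copper export, fell by 0.55. ATOX1, the chaperone that hands copper to the secretory pathway pumps, rose by 0.64 and CUTC by 0.33. COMMD1 lost its call without F5446 replicate 2 (adjusted p = 0.0671; range 0.00501 to 0.0671) and CUTC without F5446 replicate 1 (0.0942; range 0.0015 to 0.0942).

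Of 27 listed iron genes 16 were measured. TFRC, FTH1, FTL, SLC11A2, SLC40A1, IREB2 and ACO1 were among those not analysed here. Of the 16 measured, 6 rose (18.2% of all named genes rose) and 3 fell (22.7% of all fell), with a median of 0.02. BMP6, a ligand that induces hepcidin, read 4.84 and 4.98 in the controls and 7.16 and 7.62 after F5446, a log2 fold change of 2.48 ± 0.16 (SE). HFE, a regulator of iron uptake, read 5.97 and 5.54 in the controls and 3.77 and 3.45 after F5446, a change of -2.14 ± 0.20. The iron-sulphur cluster genes went apart, with NFS1, the cysteine desulphurase, at -1.25 and ISCU, the scaffold, at 1.05. TFR2, a transferrin receptor, changed by -0.58, PCBP2, an iron chaperone, by 0.53, HMOX1, which degrades haem, by 0.49, FBXL5, an iron-sensing ubiquitin ligase subunit, by 0.42 and NCOA4, the receptor for ferritin breakdown, by 0.25. Leaving out single arrays ended the call of TFR2 without control replicate 1 or F5446 replicate 1 (adjusted p = 0.0514 and 0.0656; range 0.00466 to 0.0656). That of HMOX1 ended without control replicate 2, F5446 replicate 1 or F5446 replicate 2 (0.0525, 0.0832 and 0.0525; range 0.00183 to 0.0832). That of NCOA4 ended without control replicate 1 or F5446 replicate 2 (0.0579 and 0.089) and in 2 other settings, at up to 0.12 (range 0.000396 to 0.12).

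Other described regulators of metallothionein transcription were also measured, 12 of 18 listed. Of these 6 rose (18.2% of all named genes rose), 4 fell (22.7% of all fell) and 2 did not pass. None of the 12 lay below the median of all probe sets, and 55.7% of all named genes at or above it passed in either direction. The median log2 fold change was 0.37. MAFF, a small MAF protein that pairs with NRF2, read 5.32 and 5.55 in the controls and 6.94 and 7.27 after F5446, a log2 fold change of 1.67 ± 0.15 (SE). NFE2L2, which encodes NRF2, changed by 1.60, MAFG by 1.21, STAT3 by 0.75, EP300, a coactivator, by 0.68 and SP1 by 0.58. The DNA methyltransferase genes were lower: DNMT1 read 10.10 and 9.96 in the controls and 8.46 and 8.27 after F5446, a change of -1.66 ± 0.08, DNMT3B changed by -1.45 and DNMT3A by -0.56. CTCF, an architectural DNA-binding protein, changed by -1.04. DNA methylation at the metallothionein genes was not measured, and the part of any of these genes in the members' values was not tested.

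**Figure D4:**
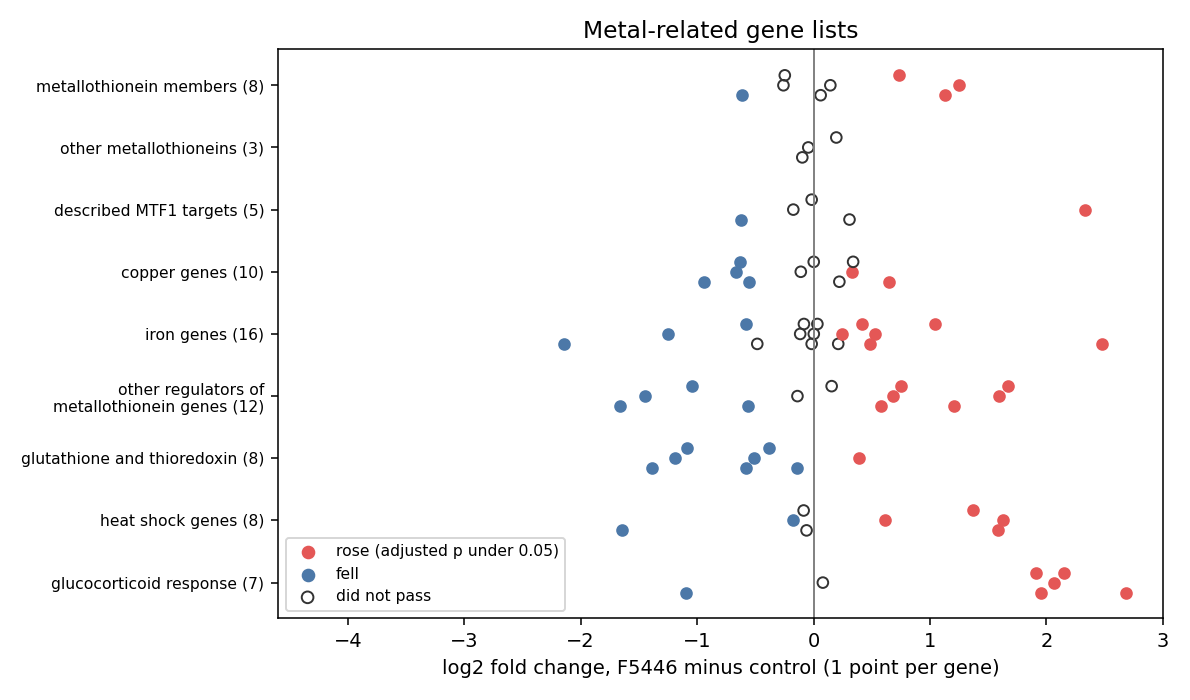
Log2 fold change (horizontal axis) of each measured gene in the lists (rows, number of measured genes in brackets); red points rose, blue points fell and open points did not pass. The metallothionein members spread from -0.61 to 1.25, and copper and iron genes lie on both sides of 0. In the glutathione and thioredoxin list 7 of the 8 genes fell (22.7% of all named genes fell).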

How the data were processed

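The deposited values (53617 probe sets on 4 arrays) were read as log2 signal. Their scale is unstated and was inferred from the range, 0.71 to 13.8. Per the submitters' processing notes, the authors used Partek to make the log2 values; the background correction and normalization behind them were not given in the sources used here. Probe sets were named from the platform annotation (16098 named, 14884 genes); of 779 genes with several probe sets the brightest was kept. The test was that of limma 3.58.1 (R 4.3.3; lmFit on group alone, then eBayes with an intensity trend), two-sided, with Benjamini-Hochberg adjustment over all named genes. On simulated data for this comparison (14884 genes), the fit recovered 49 of 100 genes changed by a log2 of 1 and 90 of 100 changed by 2. There was 1 false call among 140. The changed genes were a far smaller share there than the 40.9% called in the real data. Because the adjusted p depends on that share, these counts do not give the share of real changes that the test finds. The number of arrays, 2 per group, limits the precision. Each gene has 2 residual degrees of freedom. Its limma standard error, interval and p-value therefore rest also on the spread of other genes of similar signal, through eBayes. Array scaling, variance model, a filter on dim genes, the probe sets tested, a replicate block and left-out arrays were tried as alternatives.

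The members and gene lists were chosen with earlier results of these data known, so counts over them are descriptions. The genes named are all members, the genes of each list that passed, the 5 nearest profiles of MTF1, MT1G and MT1X, and SUV39H1. To these were added SUV39H2, MT3, MT4, MT1L, PGF, CSRP1, HAMP, ZBTB16 and the markers named. Promoter and protein sequences were not analysed here.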

Additional observations from a re-analysis of the deposited data

How the results depend on the processing

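MTF1, MT1G, MT1X and MT2A kept direction and call in all 13 alternatives, and metallothioneins higher stayed at 3. Without single replicates the number of metallothioneins lower ran from 0 to 1 and was 0 without F5446 replicate 1. Testing all probe sets, named or not, gave 6274 higher and 5483 lower. Signs turned among dim or unchanged genes. With single replicates left out, MT1B ran from -0.29 to 0.41, MT1H from -0.37 to 0.66, MT1M from -0.70 to 0.18, MT3 from -0.15 to 0.060 and MT1L from -0.46 to 0.26. MT3 was 0.081 with each array centred and 0.051 after quantile normalization of the named probe sets, and MT1L was 0.030 with each array centred. The cause was not tested. With dim genes left out MT1B, MT1H, MT1M and MT1L have no value. Of the 47 called list genes that are no members, 37 kept the call in every alternative, 10 lost it in at least 1 and 0 changed sign. The replicate block, on numbers that the titles share and nothing ties to a common culture (correlation of same-numbered deviations 0.04), gave 2722 higher and 3342 lower and left the calls of all 9 members as they were. With an array left out, the lone array of its group is assumed to vary like the other group.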

Other observations

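Other genes that respond to metals or oxidants, or to the hormones that raise metallothionein mRNA, were read from 3 further lists, and their part in the members' values was not tested. Of 8 measured genes of glutathione and thioredoxin metabolism, 7 fell (22.7% of all named genes fell) and 1 rose (18.2% of all rose). The median log2 fold change was -0.55. In either direction, 55.7% of all named genes at or above the median of all probe sets passed. GSTP1, a glutathione transferase, read 11.17 and 11.19 in the controls and 9.92 and 9.67 after F5446, and GPX2, the gastrointestinal glutathione peroxidase, 9.23 and 9.23 against 8.08 and 8.02. GSS, GPX4, GPX1, GSR and TXN changed by between -1.08 and -0.14, and TXNRD1 rose by 0.39. GCLC, GCLM and SLC7A11 were not analysed here. The call of TXN was lost in 8 of 13 alternatives, up to an adjusted p of 0.787. Without single replicates GPX1 had an adjusted p of 0.0599 (without control replicate 1) and 0.0697 (without F5446 replicate 2), and TXNRD1 of 0.053 (without F5446 replicate 1).

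Of 8 heat shock genes that metals can induce, 4 rose (18.2% of all named genes rose) and 2 fell (22.7% of all fell). The remaining 2 did not pass, and the median was 0.27. Only 1 of the 8 lay below the median of all probe sets, and 55.7% of all named genes at or above it passed in either direction. HSPB1 read 11.04 and 10.95 in the controls and 9.40 and 9.31 after F5446, while HSPA1A read 9.95 and 9.84 against 11.53 and 11.53; its near-identical copy HSPA1B changed by 1.58. BAG3 changed by 1.37, HSPA6 by 0.61 and HSPD1 by -0.17. The HSPD1 call was lost in 7 alternatives (adjusted p up to 0.557) and that of HSPA6 without control replicate 1 (0.0594) or F5446 replicate 1 (0.108).

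Of 7 genes of the glucocorticoid response, 5 rose (18.2% of all named genes rose) and 1 fell (22.7% of all fell). The median was 1.95. Only 1 of the 7 lay below the median of all probe sets, and 55.7% of all named genes at or above it passed in either direction. SGK1 read 3.61 and 3.31 in the controls and 6.10 and 6.20 after F5446, and ERRFI1 8.59 and 8.59 against 10.67 and 10.82. KLF9, DUSP1 and PER1 changed by 1.91 to 2.06, FKBP5 by -1.10, and ZBTB16 did not pass. Several of these genes are also immediate early genes, and NR3C1, the glucocorticoid receptor gene, was not analysed here.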
